A study of Mus musculus with 12 samples.

Results

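The metallothionein, zinc and iron handling genes described here are Mt1, Mt2, Mtf1, Slc30a1, Slc39a14, Tfrc, Fth1 and Ftl1. They were chosen by gene symbol, with earlier results of these data known. They are the rows of the count table whose Ensembl identifier carries one of these names, and make up 8 of the 55487 genes listed. RNA was measured in primary bone marrow mesenchymal stromal cells (MSCs) of wild-type C57BL/6 mice, in 3 groups of 4 samples each. Control MSCs (Negative) were left untreated, a second group received 50 uM of A1 for 6 h, and the third received 50 uM of A1 together with 1 mg/mL of ovalbumin (OVA), the egg white protein used as a model antigen, for 6 h. A1 is a variant of the Accum molecule, in which a bile acid is joined to a nuclear localization signal peptide, and the study looked for the changes it causes in MSCs that take up and present antigen. All groups grew in AMEM with serum and antibiotics. For the A1 + OVA medium, the labels also name insulin, with no amount. The paper's methods for this RNA sequencing name A1 and OVA but no insulin, and whether it was present is not known. There was no group with OVA alone, so that an effect of OVA itself and one of OVA in the presence of A1 cannot be told apart. Likewise, if insulin was present with OVA, the 2 cannot be told apart. No label says whether the 4 samples of a group came from separate cultures or animals, and the p-values therefore measure only the spread between these samples, which may be technical.

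Metallothioneins are small, cysteine-rich proteins that bind zinc and copper in the cytosol. When free zinc rises, the zinc-sensing factor MTF-1 binds metal response elements (MREs) in the promoters of the metallothionein genes and of the zinc exporter gene Slc30a1. Metallothionein genes are also known to respond to glucocorticoids and oxidants. Iron enters most cells with transferrin through the transferrin receptor (Tfrc) and is stored inside ferritin, a shell of heavy (Fth1) and light (Ftl1) chains. The mRNAs of receptor and ferritin carry iron responsive elements (IREs), hairpins that iron regulatory proteins hold when iron is scarce. A bound hairpin in the 3′ untranslated region (UTR) is known to protect the receptor mRNA from decay, while a bound hairpin in the 5′ UTR blocks translation of ferritin. Changes of ferritin translation are therefore not seen in RNA counts.

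The bases before the RefSeq starts of the MTF-1 target genes Mt1, Mt2 and Slc30a1 are shown with matches to the MRE core. They are given because the RNA levels of these genes are compared. The core was searched as TGCACNC or TGCGCNC on both strands of the 300-base window around each RefSeq start (GRCm38.p6). The capitals in the lines that follow, all from the plus strand, mark the matches. Each line stops some bases short of the start site, which is at 94179089 in Mt1, 94172618 in Mt2 and 191906781 in Slc30a1. A match on the opposite strand is printed as its reverse complement, such as GTGTGCA in Mt2.
Mt1, chr8:94178839-94179073: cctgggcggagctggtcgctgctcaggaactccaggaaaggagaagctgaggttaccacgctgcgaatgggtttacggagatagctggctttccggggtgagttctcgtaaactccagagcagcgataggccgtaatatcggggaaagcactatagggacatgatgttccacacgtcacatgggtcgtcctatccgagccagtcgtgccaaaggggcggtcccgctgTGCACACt
Mt2, chr8:94172368-94172602: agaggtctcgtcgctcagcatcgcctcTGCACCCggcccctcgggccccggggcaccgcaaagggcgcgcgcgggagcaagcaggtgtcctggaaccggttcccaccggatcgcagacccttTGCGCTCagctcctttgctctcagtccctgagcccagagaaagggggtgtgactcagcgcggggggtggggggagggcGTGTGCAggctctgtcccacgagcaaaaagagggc
Slc30a1, chr1:191906531-191906765: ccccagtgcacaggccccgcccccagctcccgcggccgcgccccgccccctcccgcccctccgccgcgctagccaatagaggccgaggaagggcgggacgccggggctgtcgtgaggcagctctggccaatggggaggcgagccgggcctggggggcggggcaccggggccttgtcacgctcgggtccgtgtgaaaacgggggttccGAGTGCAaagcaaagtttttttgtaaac
Counting also the bases that are not printed, the whole window held 3 matches in Mt1, 4 in Mt2 and 2 in Slc30a1. The windows depend on the annotated start, as GENCODE begins the gene Mt2 at 94172664, after its RefSeq start. Matches outside the window, or around starts other than those of RefSeq, were not counted. The counts need not be all MREs of these promoters. Of the 32851 RefSeq promoter windows searched, 25.7% held at least 1 match, 7.11% at least 2, 1.97% at least 3 and 0.517% at least 4. Tfrc held 2 overlapping matches in 1 of its windows, whereas Mtf1, Fth1 and Ftl1 held none. Slc39a14 had no entry in this table. The core of the antioxidant response element, searched as TGACNNNGC on both strands, was found once in Mt2 and once in Slc30a1, against 12.4% of all windows with at least 1. The E-box CACGTG was found in none of the members and in 7.15% of all windows. These matches are letters in a window and do not show that a factor was bound.

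The IREs of the iron genes are shown because the same loop lies at opposite ends of the mRNAs of receptor and ferritin. They were searched in the UTRs of 1 principal transcript per gene (GRCm38, GENCODE M21) as an unpaired C, a stem of 5 paired bases and the loop CAGTGN. The loop is in capitals, 5′ to 3′ on the strand of the mRNA.
Tfrc, 3′ UTR, chr16:32631219-32631247 (+): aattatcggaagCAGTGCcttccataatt
Tfrc, 3′ UTR, chr16:32631598-32631626 (+): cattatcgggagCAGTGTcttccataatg
Tfrc, 3′ UTR, chr16:32631663-32631691 (+): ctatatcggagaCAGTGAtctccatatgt
Tfrc, 3′ UTR, chr16:32631710-32631738 (+): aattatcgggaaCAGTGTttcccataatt
Fth1, 5′ UTR, chr19:9982732-9982760 (+): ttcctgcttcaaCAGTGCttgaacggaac
Ftl1, 5′ UTR, chr7:45459779-45459807 (-): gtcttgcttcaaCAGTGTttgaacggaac
Tfrc held 4 such hairpins, the highest number among 19848 3′ UTRs, of which 104 (0.524%) held at least 1 and only that of Tfrc held 2 or more. Fth1 and Ftl1 held 1 each in the 5′ UTR, as did 21 of 19726 genes (0.106%). The other 5 members held none in either UTR. Hairpins with another loop or an unpaired base in the stem, and those of other transcripts, were not sought. The numbers are therefore matches to this pattern and need not be all IREs.

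**Figure D1:**
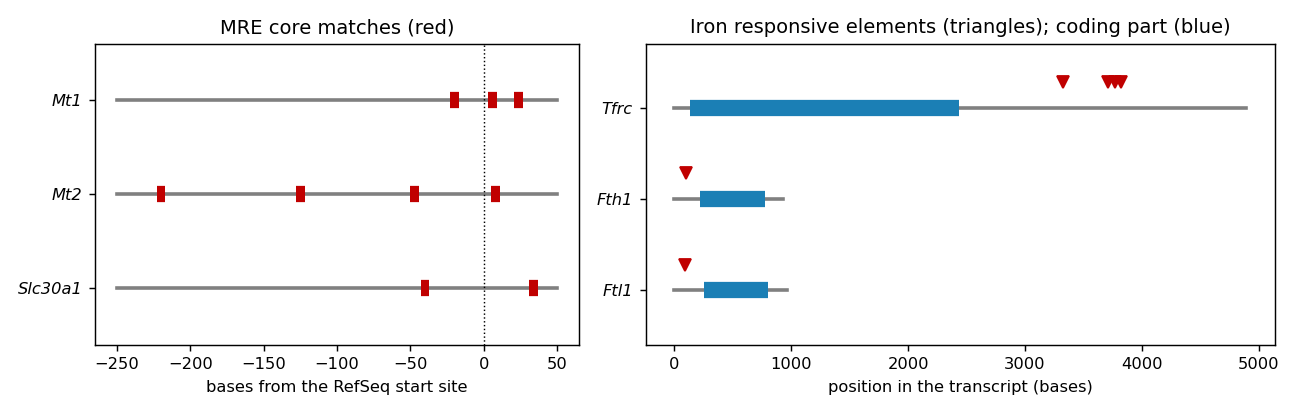
Left, matches to the MRE core (red bars) along the 300-base promoter windows of Mt1, Mt2 and Slc30a1, with the position in bases from the RefSeq start site (dotted line). Right, the principal transcripts of Tfrc, Fth1 and Ftl1 in bases, with the coding part in blue and each IRE loop as a triangle: the 4 loops of Tfrc lie after the coding part, and the single loops of Fth1 and Ftl1 before it.

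Levels are in CPM, a depth-normalized read count computed here with TMM-adjusted library sizes, and levels of different genes are compared as CPM per kilobase of the principal transcript. Libraries held 15644991 to 16881995 counts in control, 13702348 to 14347870 in A1 and 14359973 to 16674294 in A1 + OVA. The MSC markers Itgb1, Cd44, Pdgfra, Pdgfrb and Ly6a were present, but the defining markers Thy1 and Nt5e reached at most 17 and 14 counts in any library. The paper stained for their proteins, CD90 and CD73, by flow cytometry and reported an unchanged MSC phenotype with A1. The summed level of the 8 MSC markers was 2210 to 2400 CPM in control, 3120 to 3330 CPM in A1 and 2940 to 3170 CPM in A1 + OVA. Itgb1 (means of 1450, 2220 and 2140 CPM) and Cd44 (175, 458 and 402 CPM) carried this sum, whereas Pdgfra (247, 125 and 111 CPM) and Ly6a (35.1, 23.3 and 24.9 CPM) went the other way. Pdgfrb (389, 387 and 354 CPM) and Eng (9.4, 9.09 and 8.19 CPM) did not rise. The summed level of the 8 leukocyte and macrophage markers, 3 of which had at most 3 counts, was 9.28 to 10.1 CPM in control. It was 12.3 to 14.5 CPM in A1 and 10.6 to 12.8 CPM in A1 + OVA, most of it from Cd14 (means of 7.59, 11.3 and 9.24 CPM). These shifts went along with the treatment, and their part in the results on the members was not tested. Of 7 erythroid markers, 5 (4 of them globin or glycophorin genes) were at 0 in all libraries, and the summed level was at most 0.296 CPM. The 4 endothelial markers summed to at most 0.916 CPM. In bulk RNA, fewer cells of a type and less RNA per cell cannot be told apart.

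The ferritin genes were by far the most abundant members. In control MSCs, Fth1 stood at 2072 ± 91.7 CPM per kilobase (SD, n = 4), followed by Ftl1 at 404 and Mt1 at 100.1 CPM per kilobase. Mt2 (25.7), Tfrc (25.2) and Slc39a14 (21.5 CPM per kilobase) came next, and Slc30a1 (3.69) and Mtf1 (3.24 CPM per kilobase) were lowest. The samples of Mt2 and Tfrc overlapped in this order, as did those of Slc30a1 and Mtf1, while all other neighbours were separate. Close ranks, here and after treatment, depend on the use of the principal transcript as length. The merged exons of Slc39a14 span 10550 bases against 4926 in that transcript, and those of Mt2 588 against 511. After A1, the level of Tfrc per kilobase (69.6) passed that of Mt2 (38.7) in every sample, and only Slc30a1 and Mtf1 still overlapped. After A1 + OVA, Tfrc at 63.4 and Mt2 at 60.9 CPM per kilobase overlapped again, and Slc30a1 (4.11) and Mtf1 (3.74) were separate.

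**Figure D2:**
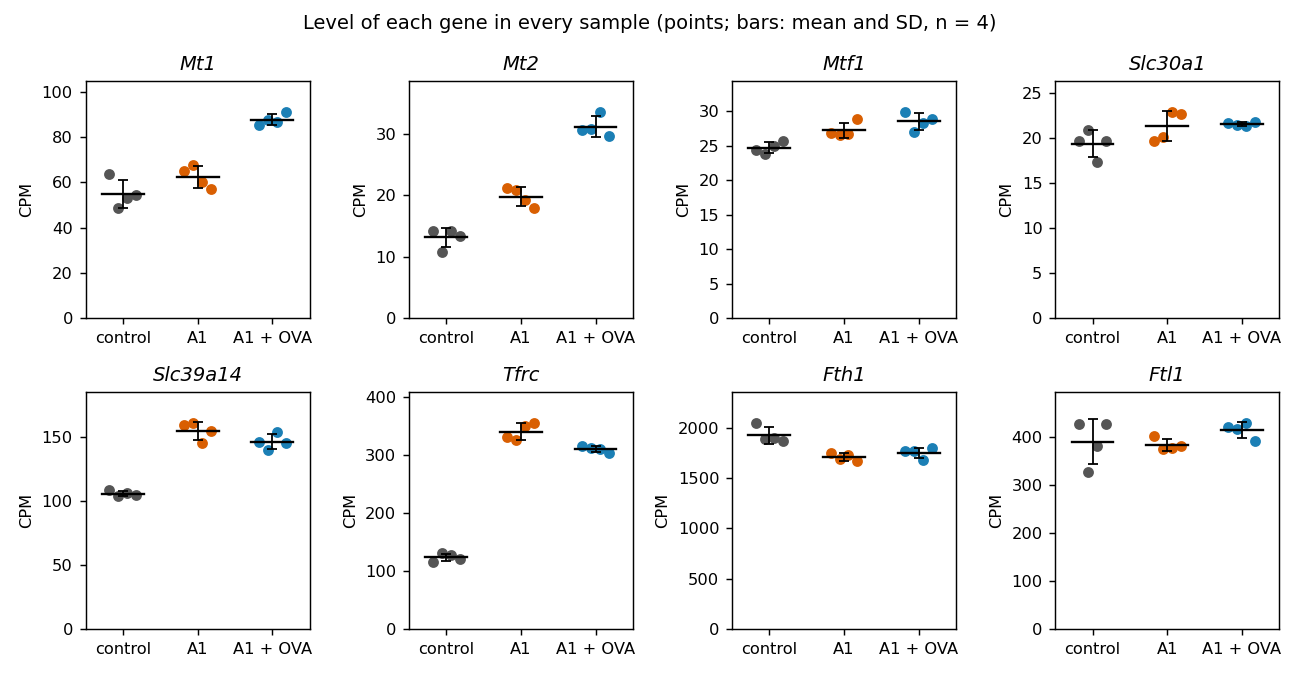
Level of the 8 members in CPM in each of the 12 samples (points), by group, with the mean and SD (bars, n = 4). Tfrc and Slc39a14 were higher in all 8 treated samples than in control, Mt2 rose in 2 steps with A1 and with A1 + OVA, and Mt1 stood apart in the A1 + OVA samples at 85.45 to 91.1 CPM.

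A comparison of A1 with control asked how A1 alone moved these genes. Tfrc, Mt2 and Slc39a14 rose and Fth1 fell slightly, with smaller rises of Mt1 and Mtf1, whereas Slc30a1 and Ftl1 did not pass the test. In edgeR's quasi-likelihood test with Benjamini-Hochberg adjustment over all 11314 genes tested, 5 of the 8 members were higher and 1 was lower at an adjusted p under 0.05. Over all genes tested, 31.7% were higher and 31.1% lower by the same rule. When a log2 fold change of 0.5 or more in either direction was asked for in addition, the members that passed were Tfrc, Mt2 and Slc39a14, 3 of 8, beside 21% of all genes. The median log2 fold change was 0.16 over the members and -0.0017 over all genes. Because the members were chosen with earlier results known, such shares and medians, here and below, are a description and not a test.

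When A1 + OVA was compared with control, Mt1 joined Tfrc and Mt2 among the larger rises. Again 5 members were higher and 1 lower, beside 29.7% and 27.9% of all genes, and 3 passed the log2 fold change of 0.5, beside 17.7% of all genes. The median was 0.34 over the members and 0.0036 over all genes. In the comparison of A1 + OVA with A1, which differ in OVA and, if the labels hold, in insulin, both metallothionein genes rose and Tfrc fell slightly. This was 2 of 8 members higher, beside 6.05% of all genes, and 1 lower, beside 6.81% of all genes. Only Mt2 passed the log2 fold change of 0.5 there, as did 1.2% of all genes, and Mt1 lay just under it. The 2 comparisons with control share the same control samples, and the comparison of both treatments shares samples with each of them.

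**Figure D3:**
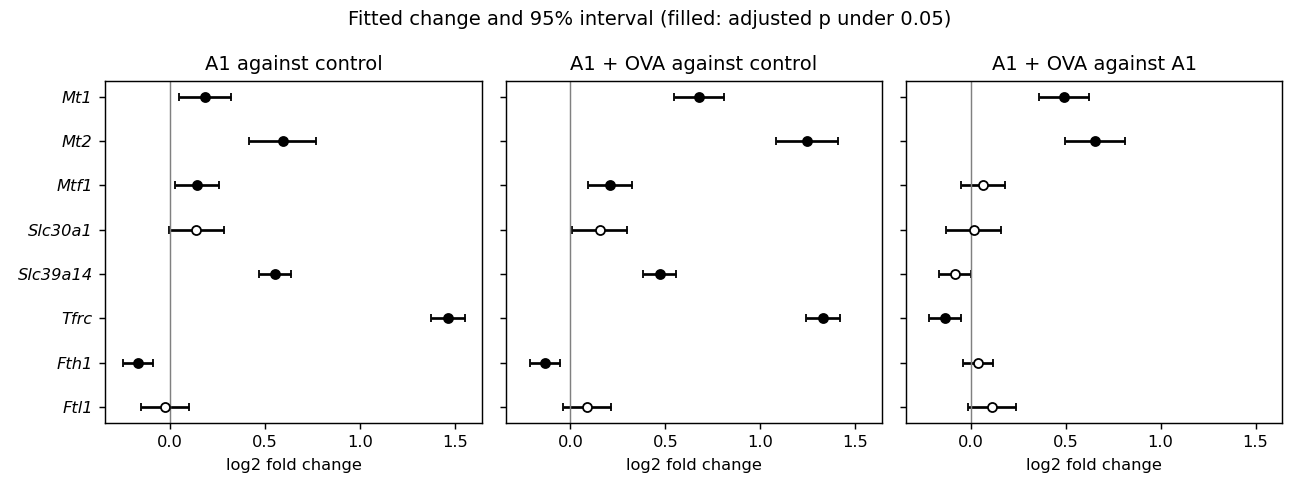
Log2 fold change of each member with its 95% confidence interval in the 3 comparisons, fitted with edgeR over 12 samples (filled points: adjusted p under 0.05). Tfrc lies farthest from 0 in both comparisons with control, at 1.46 and 1.33, while Mt1 at 0.49 and Mt2 at 0.65 are the farthest between A1 + OVA and A1.

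Mt2 (ENSMUSG00000031762, chr8:94172664-94173568, plus strand), 1 of the 2 metallothionein genes that these cells used, was at 14.2, 10.8, 14.1 and 13.4 CPM in the control samples. It was at 21.1, 20.8, 19.2 and 17.9 CPM after A1 and at 30.6, 30.8, 33.5 and 29.6 CPM after A1 + OVA. All A1 samples were above all control samples, and all A1 + OVA samples above all A1 samples. The log2 fold change against control was 0.59 ± 0.09 (SE, adjusted p = 3.54e-06, edgeR) with A1 and 1.25 ± 0.08 (adjusted p = 1.19e-11, edgeR) with A1 + OVA, a 2.37-fold rise. Between A1 + OVA and A1 it was 0.65 ± 0.08 (adjusted p = 8.57e-06, edgeR), or 1.57-fold, which was the 88th largest rise among the 11314 genes.

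Mt1 (ENSMUSG00000031765, chr8:94179082-94180327, plus strand), the neighbouring gene and the more abundant of the pair, was at 63.6, 48.7, 53.15 and 54.5 CPM in control. It was at 65.1, 67.6, 60.3 and 56.9 CPM after A1 and at 85.45, 87.7, 86.7 and 91.1 CPM after A1 + OVA. The A1 samples overlapped control through Negative 1, the highest control sample, whereas the A1 + OVA samples lay above all others. With A1 + OVA, Mt1 was higher than in control by a log2 fold change of 0.68 ± 0.06 (SE, adjusted p = 7.75e-09, edgeR), and higher than after A1 alone by 0.49 ± 0.06 (adjusted p = 2.69e-05, edgeR). With A1 alone the difference was small, at 0.18 ± 0.07 (adjusted p = 0.0189, edgeR). That call was lost without Negative 2 (0.13, adjusted p = 0.0861, edgeR), without Negative 3 (0.17, adjusted p = 0.0506, edgeR), without A1 sample 1 (0.16, adjusted p = 0.0672, edgeR), without A1 sample 2 (0.15, adjusted p = 0.0781, edgeR) and with upper-quartile normalization (0.16, adjusted p = 0.0513, edgeR).

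The ratio of Mt1 to Mt2 counts, which does not depend on the scaling of the libraries, fell in steps. It was 4.465, 4.53, 3.77 and 4.06 in control, 3.08, 3.24, 3.13 and 3.17 after A1, and 2.79, 2.84, 2.58 and 3.08 after A1 + OVA. The groups did not overlap, although the highest A1 + OVA sample (3.079) lay just under the lowest A1 sample (3.082). On the log2 scale the ratio fell by 0.41 with A1 and by 0.57 with A1 + OVA against control, and by 0.16 with A1 + OVA against A1. Each of the 3 differences had p = 0.0286 in a two-sided exact permutation test, the smallest p that 4 against 4 samples allow, and an adjusted p of 0.0429 over the 9 ratio comparisons made. Leaving out any A1 sample raised the adjusted p (exact permutation test) to between 0.0514 and 0.0643 for A1 against control. For A1 + OVA against A1 it rose to 0.0735. With 4 against 3 samples the smallest p of this test is again 0.0286. Its adjusted value depends on how many of the 9 comparisons reach it. The rise for A1 against control therefore does not show dependence on 1 sample, and those ranges stay separate whichever sample is left out. Of the other metallothionein genes, Mt3, the form known from brain, had no count in any sample and Mt4 had at most 2, so that neither was detectable at this depth, where 3 counts were taken as the smallest signal.

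**Figure D4:**
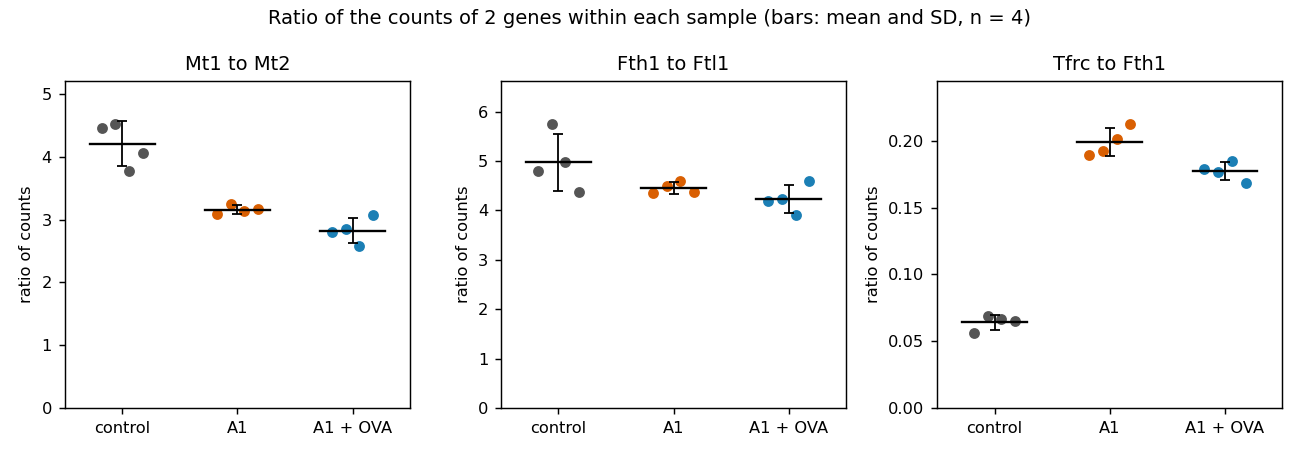
Ratio of the counts of 2 genes within each sample (points), by group, with the mean and SD (bars, n = 4). The ratio of Mt1 to Mt2 falls from 3.77 to 4.53 in control to 2.58 to 3.08 after A1 + OVA, the ratio of Fth1 to Ftl1 overlaps between all groups, and the ratio of Tfrc to Fth1 is higher in all treated samples than in control.

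Mtf1 (ENSMUSG00000028890, chr4:124802104-124849800, plus strand), which encodes the zinc-sensing factor itself, moved little. It was at 24.45, 23.8, 24.9 and 25.7 CPM in control, at 26.8, 26.6, 26.7 and 28.9 CPM after A1, and at 29.9, 27.04, 28.4 and 28.8 CPM after A1 + OVA. All treated samples lay above control, and the treated groups overlapped. The log2 fold change with A1 + OVA was 0.21 ± 0.06 (SE, adjusted p = 0.00304, edgeR), and that with A1 was 0.14 ± 0.06 (adjusted p = 0.0349, edgeR). The call with A1 was lost without Negative 1, 2 or 3 (0.12 to 0.15) or A1 sample 1 (0.14), without A1 sample 4 (0.11, adjusted p = 0.125, edgeR), without a filter on low counts (0.14), with upper-quartile normalization (0.11) and in DESeq2 (0.14, adjusted p = 0.0836).

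Slc30a1 (ENSMUSG00000037434, chr1:191906767-191913247, plus strand), the exporter that carries zinc out through the plasma membrane, did not pass the test in any comparison. It was at 19.7, 20.9, 17.3 and 19.6 CPM in control, at 19.7, 20.1, 22.9 and 22.7 CPM after A1, and at 21.7, 21.4, 21.4 and 21.75 CPM after A1 + OVA. The A1 + OVA samples varied little, with an SD of 0.186 CPM, and lay above all control samples, while those of A1 overlapped both other groups. Against control the log2 fold change was 0.14 with A1 (95% interval -0.0076 to 0.28, adjusted p = 0.0921, edgeR) and 0.15 with A1 + OVA (95% interval 0.0107 to 0.30, adjusted p = 0.0614, edgeR). Without Negative 2, the control sample with the highest level, both passed, at 0.18 (adjusted p = 0.0428, edgeR) and 0.19 (adjusted p = 0.0289, edgeR). Between A1 + OVA and A1 the difference was 0.02 (95% interval -0.13 to 0.16). Its 95% intervals against control ended below the values fitted for Mt2. With A1, the value of Mt1 at 0.18 lay inside the Slc30a1 interval. With A1 + OVA, that of Mt1 at 0.68 lay above the Slc30a1 interval.

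Slc39a14 (ENSMUSG00000022094, chr14:70303469-70351425, minus strand) encodes ZIP14, an importer of zinc, manganese and iron that is not bound to transferrin. It was at 108.5, 103.8, 106.2 and 104.5 CPM in control, at 159, 161, 145 and 155 CPM after A1, and at 146, 140, 154 and 146 CPM after A1 + OVA. Both treated groups lay wholly above control and overlapped each other. The log2 fold change was 0.55 ± 0.04 (SE, adjusted p = 1.34e-10, edgeR) with A1 and 0.47 ± 0.04 (adjusted p = 2.08e-09, edgeR) with A1 + OVA. The difference of -0.08 between them did not pass (95% interval -0.17 to 4e-04, adjusted p = 0.184, edgeR).

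Tfrc (ENSMUSG00000022797, chr16:32608920-32632794, plus strand), the receptor for iron-loaded transferrin, showed the largest change of the members against control. It was at 116, 130, 127 and 121 CPM in control, at 331, 325, 349 and 355.5 CPM after A1, and at 316, 312, 311 and 302.5 CPM after A1 + OVA. All treated samples lay above all control samples, and the A1 + OVA samples all lay below the A1 samples. A1 raised Tfrc 2.76-fold (log2 fold change 1.46 ± 0.04, SE, adjusted p = 2.26e-17, edgeR), which ranked 296th by size among the 11314 genes tested. A1 + OVA raised it 2.51-fold (log2 fold change 1.33 ± 0.04, adjusted p = 1.2e-16, edgeR). Between A1 + OVA and A1, Tfrc fell by 0.13 on the log2 scale (SE 0.04, adjusted p = 0.0334, edgeR). This last call was lost without A1 sample 3 (-0.12, adjusted p = 0.0931, edgeR), A1 sample 4 (-0.11, adjusted p = 0.114, edgeR) or A1 + OVA sample 2 (-0.14, adjusted p = 0.0602, edgeR), 3 (-0.13, adjusted p = 0.0634, edgeR) or 4 (-0.12, adjusted p = 0.0979, edgeR).

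Fth1 (ENSMUSG00000024661, chr19:9980598-9985098, plus strand), the ferritin heavy chain, which oxidizes iron as it is stored, fell slightly. It was at 2051, 1886, 1900 and 1864 CPM in control, at 1745, 1688, 1734 and 1671 CPM after A1, and at 1767, 1766, 1682 and 1795 CPM after A1 + OVA. All treated samples lay below all control samples. The log2 fold change was -0.17 ± 0.04 (SE, adjusted p = 0.000524, edgeR) with A1 and -0.14 ± 0.04 (adjusted p = 0.00434, edgeR) with A1 + OVA, and the difference between both treatments was 0.04 (adjusted p = 0.58, edgeR).

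Ftl1 (ENSMUSG00000050708, chr7:45457944-45459884, minus strand), the ferritin light chain, did not pass the test in any comparison. It was at 428, 328, 382 and 427 CPM in control, a wider spread than in the treated groups, where it was at 402, 376.5, 377 and 382 CPM after A1 and at 422, 418, 431 and 391 CPM after A1 + OVA. The 3 groups overlapped. The log2 fold change was -0.03 with A1 (95% interval -0.15 to 0.10), 0.09 with A1 + OVA (95% interval -0.04 to 0.21) and 0.11 between A1 + OVA and A1 (95% interval -0.015 to 0.24). The sign of the first turned without Negative 1 (0.02) or Negative 4 (0.02), and the second was 0.0099 without Negative 2. Ftl1 has 11 near-identical copies in the annotation, with at least 95% identity over at least 100 bases. They held 200 counts in all, 0.28% of those of Ftl1, and it is not known how reads that fit several copies were counted. No such copy was found for the other 7 members.

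The ratio of Fth1 to Ftl1 counts lay between 4.36 and 5.75 in control, between 4.34 and 4.6 after A1 and between 3.91 and 4.59 after A1 + OVA. Its log2 differences of -0.15, -0.23 and -0.08 did not pass the exact permutation test (adjusted p = 0.129, 0.0735 and 0.171). Without Negative 4, both differences from control passed (-0.21 and -0.29, adjusted p = 0.0321, exact permutation test), as did that between A1 + OVA and A1 without A1 + OVA sample 4 (-0.12, adjusted p = 0.0429, exact permutation test). The ratio of Tfrc to Fth1 counts, by contrast, rose from 0.0564, 0.0691, 0.0667 and 0.0648 in control to 0.190, 0.192, 0.201 and 0.213 after A1 and to 0.179, 0.176, 0.185 and 0.169 after A1 + OVA. The groups were separate in all 3 comparisons. The log2 ratio was higher than in control by 1.64 with A1 and by 1.47 with A1 + OVA, and fell by 0.17 from A1 to A1 + OVA, each with an adjusted p of 0.0429 (exact permutation test). Leaving out any A1 sample raised this adjusted p to between 0.0514 and 0.0643 for A1 against control (exact permutation tests). For A1 + OVA against A1 it rose to between 0.0514 and 0.0735, and without A1 + OVA sample 4 to 0.0643 (exact permutation tests). Here too, 4 against 3 samples allow no p below 0.0286, and its adjusted value depends on the other comparisons. The ranges of A1 and control stay separate whichever sample is left out.

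Across the 12 samples, the members fell into different patterns on the log2 CPM scale. Mt1 and Mt2 had a Pearson r of 0.95 with each other, Tfrc and Slc39a14 one of 0.971, and Tfrc and Fth1 one of -0.887, while Mt1 and Tfrc had an r of only 0.592. These values describe 12 samples in 3 groups that share a scaling, and most of the variation is that between groups. Among all 11314 genes, those most like Mt2 were Gadd45g (r = 0.987), a stress-inducible gene of growth arrest, Hmox1 (r = 0.971), the heme oxygenase, and Atp6v0b (r = 0.971), a subunit of the vacuolar proton pump. Those most like Mt1 were Atp6v0b (r = 0.967), the creatine transporter Slc6a8 (r = 0.954) and Mt2. Hmga2, Fgf2 and Gcnt4 (each r = 0.998) were most like Tfrc, and their log2 fold changes with A1 of 2.56, 2.98 and 2.34 were larger than that of Tfrc. Slc30a1 had weaker neighbours in Ormdl2, Rad1 and Rap2a, with r between 0.860 and 0.868.

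The wider pathway was read from 8 lists of 95 other genes of zinc, iron, heme and copper handling, of which 74 were expressed enough to be tested. With A1, 24 of the 74 were higher and 21 lower than control (31.7% and 31.1% of all genes), and with A1 + OVA 23 were higher and 16 lower (29.7% and 27.9% of all genes). Their median log2 fold changes were -0.0034 with A1 and 0.014 with A1 + OVA. Between A1 + OVA and A1, 3 were higher and 3 lower (6.05% and 6.81% of all genes). None of these 6 had an absolute log2 fold change of 0.5 or more, a rule that only 1.2% of all genes passed.

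Among the other zinc exporters of the SLC30 family, 4 of 5 tested genes were higher with A1 and none was lower, with small values such as 0.15 for both Slc30a7 and Slc30a6, which carry zinc into the secretory pathway. With A1 + OVA, 2 were higher and 1, Slc30a4, was lower. Of the other zinc importers of the SLC39 family, 5 of 8 were higher and 1 was lower with A1, and likewise 5 and 1 with A1 + OVA. The largest with A1 were Slc39a10 (log2 fold change 0.39 ± 0.05, SE, adjusted p = 2.72e-07, edgeR), Slc39a13 (0.33 ± 0.07) and Slc39a6 (0.30 ± 0.04). None of them reached the value of Slc39a14, at 0.55 ± 0.04. Between A1 + OVA and A1, the exporter Slc30a4 and the importers Slc39a7 and Slc39a10 fell by 0.15, 0.25 and 0.17 on the log2 scale, while both metallothionein genes rose. The 3 listed genes that were higher in this comparison were Hmox1 (0.26), the copper transporter Slc31a2 (0.25) and the iron importer Slc11a2 (0.16). These 6 genes were named after their values were seen.

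**Figure D5:**
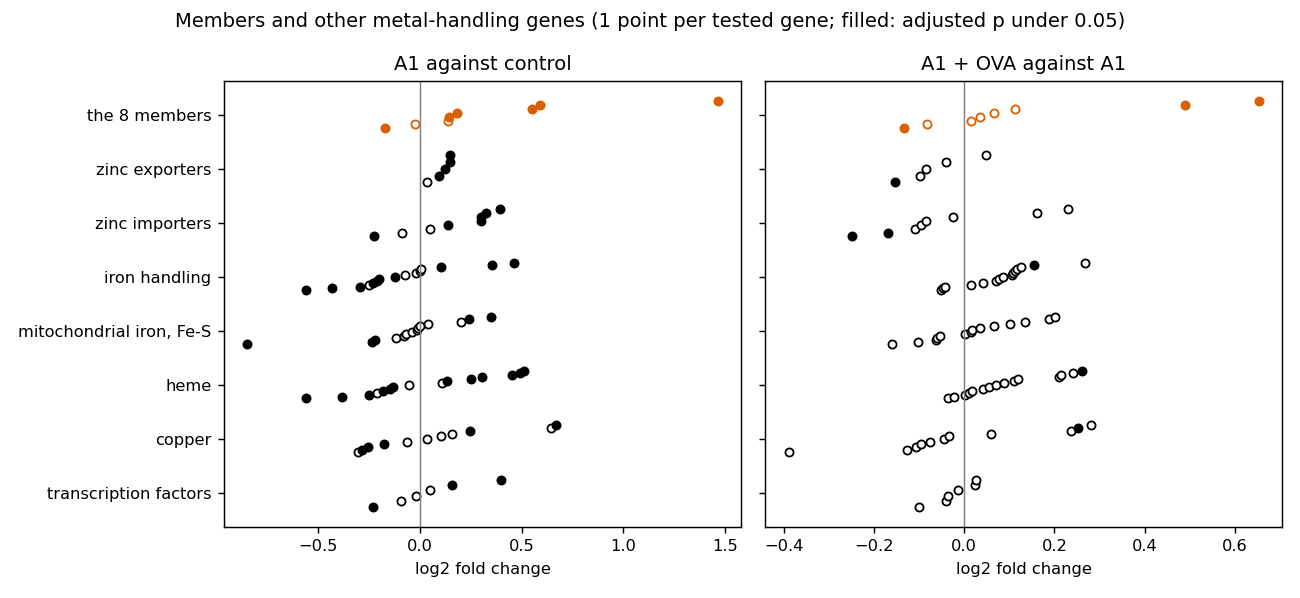
Log2 fold change of the 8 members (orange) and of the 74 other tested metal-handling genes (black, 1 point per gene) in A1 against control and in A1 + OVA against A1, with filled points for an adjusted p under 0.05. Tfrc at 1.46 lies beyond every listed gene on the left, and Mt2 at 0.65 and Mt1 at 0.49 on the right.

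Of the other genes of iron uptake, storage, export and regulation, 3 of 15 were higher and 7 lower with A1, and 3 were higher and 3 lower with A1 + OVA. The metalloreductase Steap2 fell from 329 to 223 CPM (log2 fold change -0.56 ± 0.04, adjusted p = 1.73e-11, edgeR), in the opposite direction to Tfrc. Hfe, a partner of the transferrin receptor, was lower at -0.43 ± 0.13 (adjusted p = 0.00707, edgeR). Slc11a1 (0.47) and Lcn2 (0.36) were higher, but from 1.42 and 5.12 CPM. The genes of the IRE-binding proteins, Aco1 (-0.21, adjusted p = 0.0006, edgeR) and Ireb2 (-0.12, adjusted p = 0.0297, edgeR), named for their role at the IREs and chosen after their values were seen, were slightly lower with A1, while with A1 + OVA neither passed (-0.09, adjusted p = 0.124, and -0.08, adjusted p = 0.15, edgeR). Lower with A1 was also Ncoa4, the receptor that delivers ferritin to lysosomes (-0.29 ± 0.06, adjusted p = 0.000296, edgeR), which was chosen in the same way. The iron exporter Slc40a1, named on the same ground and also with an IRE in its 5′ UTR, was at 4.67 CPM in control and 3.91 CPM after A1, a difference that did not pass (adjusted p = 0.107, edgeR).

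Of the genes of heme synthesis, breakdown and transport, 6 of 15 were higher and 6 lower with A1, and 7 were higher and 3 lower with A1 + OVA. Hmox1, which breaks down heme and releases its iron, rose from 112 ± 7.27 CPM in control to 154 ± 2.19 CPM after A1 and 184 ± 6.71 CPM after A1 + OVA (SD, n = 4). Its log2 fold change was 0.45 ± 0.04 (SE) with A1, 0.71 ± 0.04 with A1 + OVA and 0.26 ± 0.04 between A1 + OVA and A1 (adjusted p = 0.000344, edgeR), so that it moved in 2 steps as Mt2 did. The heme transporters Slc48a1 (0.51 ± 0.05) and Flvcr1 (0.49 ± 0.04) were higher with A1, whereas Ppox, an enzyme of heme synthesis, was lower (-0.56 ± 0.11, adjusted p = 0.000211, edgeR).

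Of the 14 genes of mitochondrial iron and iron-sulfur clusters, 2 were higher and 3 lower with A1, and 3 higher and 5 lower with A1 + OVA. The largest with A1 were Hscb, a chaperone of cluster transfer (-0.85 ± 0.12, from 6.63 CPM), the mitochondrial iron importer Slc25a28 (0.35 ± 0.08) and Glrx5 (0.24 ± 0.05). Of 11 copper genes, 2 were higher and 3 lower with A1, among them Sco2 (0.67 ± 0.20, from 2.00 CPM) and Slc31a2 (-0.28 ± 0.08), and 1 was higher and 1 lower with A1 + OVA. Of 6 other transcription factors known at metallothionein genes, 2 were higher and 1 lower with A1, and 2 higher and 2 lower with A1 + OVA. Nfe2l2, which encodes the oxidant-responsive factor NRF2, was at 142, 188 and 183 CPM in the 3 groups (log2 fold change with A1 0.40 ± 0.03, adjusted p = 1.4e-09, edgeR). Between A1 + OVA and A1 its difference of -0.04 did not pass (adjusted p = 0.475, edgeR). These are RNA levels, and a part of the NRF2 protein in the changes of Mt1 and Mt2 was not tested. Stat3 was higher (0.16 ± 0.04) and Usf1 lower (-0.23 ± 0.07) with A1.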

How the data were processed

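RNA of 12 samples of bone marrow MSCs (4 control, 4 A1, 4 A1 + OVA) was sequenced from strand-specific polyA libraries. Per the labels, the authors used bcl2fastq 2.20, STAR 2.7 and featureCounts 2.0 on GRCm38 and deposited raw counts per Ensembl gene, with no normalization. How reads with several matches were counted is not given in the sources used here. The members and lists were chosen with earlier results of these data known. From the counts, protein-coding genes kept by filterByExpr were scaled by TMM and tested with edgeR 4.0.16 (R 4.3.3) by the quasi-likelihood test in 1 fit of 12 samples and 3 groups. Benjamini-Hochberg adjustment ran over 11314 genes, with calls at an adjusted p under 0.05. DESeq2 1.42.0 was an alternative, with others for normalization, filter, genes, samples and replicate block. The fit was tested on simulated data. Log2 CPM used a prior count of 2. Library totals of 13702348 to 16881995 counts and 4 samples per group limit the precision. Ratios of counts within a sample were compared by two-sided exact permutation tests. Annotation was GENCODE M21, which holds 99.53% of the identifiers, and promoters came from RefSeq. Near-identical copies were sought with blastn 2.17.0. All members are named. From each list the text names the tested genes with the largest absolute log2 fold change with A1 among those called (2 to 4 a list), any gene with an absolute value of 0.5 between A1 + OVA and A1 (none), and the 3 genes with the highest Pearson r to Mt1, Mt2, Slc30a1 and Tfrc. Others are marked where named.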

Additional observations from a re-analysis of the deposited data

Results flagged for a closer look

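Mtf1 in A1 sample 4, at 28.9 CPM, lay apart from the other 3 A1 samples at 26.6 to 26.8 CPM. Its gap to the nearest sample was 0.888 of the range of the group, above the limit of Dixon's test for 4 samples. It was the only value of 33 groups of 4 that did so, and chance gives about 1 in 20.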

How the results depend on the processing

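Each of the 24 log2 fold changes of the members was recomputed under 20 alternatives. Of these 480 values, 456 kept both direction and side of the threshold, and 17 of the 24 did so under all alternatives, including those of Mt2, Slc39a14 and Fth1 and the rises of Tfrc against control. The replicate numbers did not pair the samples (mean r of their deviations 0.021 for the same number and -0.007 for different numbers). In the fit with replicate block, no member's call changed and 2372, 2008 and 132 DEGs (adjusted p under 0.05, absolute log2 fold change at least 0.5) were called in A1 against control, A1 + OVA against control and A1 + OVA against A1. For the ratios, pairing by replicate block left the log2 differences of Mt1 to Mt2 (-0.41, -0.57 and -0.16) and Tfrc to Fth1 (1.64, 1.47 and -0.17) at an adjusted p of 0.1875 (exact permutation test), since 4 pairs cannot give less than 0.125. With a log2 threshold of 1, there were 745, 590 and 16 DEGs, against 2372, 2004 and 136.

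With upper-quartile normalization, Mt1 (0.16) and Mtf1 (0.11) did not pass in A1 against control and 3 members were higher. Mtf1 did not pass there without a filter on low counts (0.14) or in DESeq2 (0.14). Over the fits that each left out 1 sample, the log2 value in A1 against control ranged from 0.13 to 0.26 for Mt1, from 0.11 to 0.16 for Mtf1, from 0.0878 to 0.18 for Slc30a1 and from -0.10 to 0.02 for Ftl1, with the sign of Ftl1 turned without Negative 1 (0.021) or Negative 4 (0.0193). It ranged from 0.10 to 0.19 for Slc30a1 and from 0.0099 to 0.13 for Ftl1 in A1 + OVA against control. In A1 + OVA against A1 it ranged from -0.15 to -0.11 for Tfrc and from -0.03 to 0.0508 for Slc30a1, whose sign turned without A1 sample 1 (-0.0264) or 2 (-0.0118). Members called higher ranged from 3 to 5 in A1 against control, and members called lower from 0 to 1 in A1 + OVA against A1, where genes called lower ranged from 499 (without A1 + OVA sample 4) to 849. The log2 ratio of Mt1 to Mt2 ranged from -0.46 to -0.37, from -0.62 to -0.53 and from -0.21 to -0.12 in the 3 comparisons, that of Fth1 to Ftl1 from -0.21 to -0.0801, from -0.29 to -0.16 and from -0.12 to -0.0383, and that of Tfrc to Fth1 from 1.57 to 1.67, from 1.41 to 1.5 and from -0.19 to -0.14. No scaling moved the median of all genes by more than 0.03 in size (upper-quartile, -0.0293). Other causes of these changes were not tested. Replicates differed by 1.91 to 6.8 times the counting variance, so that both depth and the number of samples limit the precision.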
